A study of Mus musculus with 8 samples.

Results

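The 6 genes described here are Hmga2, its relative Hmga1, the RNA-binding protein genes Igf2bp1, Igf2bp2 and Igf2bp3, and Lin28b. They were picked by gene symbol, and Hmga2 was picked because its level was higher after chrysotile, so every value of these 6 genes that sets chrysotile against another group, and every Hmga2 value against saline, is given as a description with no test. They make up 6 of the 34785 genes on the array and 11 of its 55681 probes. All 6 genes were kept by the filter on dim probes, which 22901 genes passed, and 10 of the 11 probes were kept. The samples were mature adipocytes differentiated in culture from 3T3-L1, a mouse preadipocyte cell line that turns into lipid-filled fat cells. Total RNA was taken after 72 h with chrysotile, crocidolite or amosite, each at 10 mg/cm2 as the labels give it (a very large amount, in a unit that nothing here could verify), or with physiological saline, which contains no fibre. Chrysotile belongs to the serpentine minerals and has curly fibres. The other fibres are amphiboles, which are straight and rich in iron. Each of the 4 groups had 2 Agilent arrays of 1 colour (Cy3), and this small number limits how precise any value can be.

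HMGA1 and HMGA2 are small chromatin proteins that bend and open DNA by binding AT-rich stretches, and they are plentiful in embryos and scarce in most adult tissues. Hmga2 is known from mouse genetics for its part in body size and in the growth of white fat, and it is active early in adipocyte differentiation. Its mRNA carries several sites for the let-7 microRNAs, which hold it down in differentiated cells, and Lin28b encodes a protein that blocks the maturation of let-7. The IGF2BP proteins bind mRNAs and alter their stability and translation. Igf2bp2 is a known transcriptional target of HMGA2 in mouse cells, while Igf2bp1 and Igf2bp3 are fetal genes that let-7 also holds down.

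The probe that gave the brighter Hmga2 signal lies on the minus strand of chromosome 10 at chr10:119798739-119798798 (mm9, positions as the files give them), and the other Hmga2 probe starts 1882 bases away at chr10:119800621-119800680. No exon or UTR annotation of mm9 was used here. The sequences are shown here because the brighter probe holds letters that pair with let-7. In the 30-base window chr10:119798741-119798770, read on the minus strand, the capitals mark the 11 bases complementary to bases 2 to 12 of let-7g and let-7i. In the microRNAs, taken from RefSeq (GRCm38.p6), the capitals mark the seed, bases 2 to 8, which all 4 share.
Hmga2 probe window: caatcaaaacacACTACTACCTCttaagtc
mmu-let-7g-5p: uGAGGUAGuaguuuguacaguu
mmu-let-7i-5p: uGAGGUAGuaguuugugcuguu
mmu-let-7a-5p: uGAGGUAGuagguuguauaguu
mmu-miR-98-5p: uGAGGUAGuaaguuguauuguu
The run of paired bases was 10 for let-7a and 9 for miR-98. The letters CTACCTC, the reverse complement of the seed, were searched in the probes as printed and on that strand only. They stood in 204 of the 55681 probes (0.366%) and in 1 of the 11 probes of the 6 genes. A match in a probe is a description of letters and not of a working site, and let-7 RNA itself was not analysed here.

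Hmga2 was at its highest after chrysotile. Levels are given as the log2 intensity of a probe minus the 75th percentile of its array, so 0 is the brightness of the 75th percentile and a difference of 1 is a doubling. Levels of different probes are not comparable. The brighter Hmga2 probe stood at 1.39 and 1.45 on the chrysotile arrays, -0.05 and -0.35 on the crocidolite arrays, -0.30 and -1.12 on the amosite arrays, and -0.69 and -1.22 on the saline arrays. The chrysotile arrays lay above all the others and 0.06 apart, whereas the amosite arrays lay 0.82 apart and the saline arrays 0.53 apart. In every fibre and saline group apart from chrysotile, replicate 1 was the higher array. Group means were 1.42 ± 0.04 for chrysotile, -0.20 ± 0.21 for crocidolite, -0.71 ± 0.58 for amosite and -0.95 ± 0.38 for saline (SD, n = 2 each). In this order, the neighbours crocidolite and amosite overlapped, and so did amosite and saline, while the crocidolite arrays lay above the saline arrays without overlap. RNA came from whole cultures, so a change in the number of cells that hold Hmga2 mRNA and a change in the mRNA per cell cannot be told apart.

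**Figure D1:**
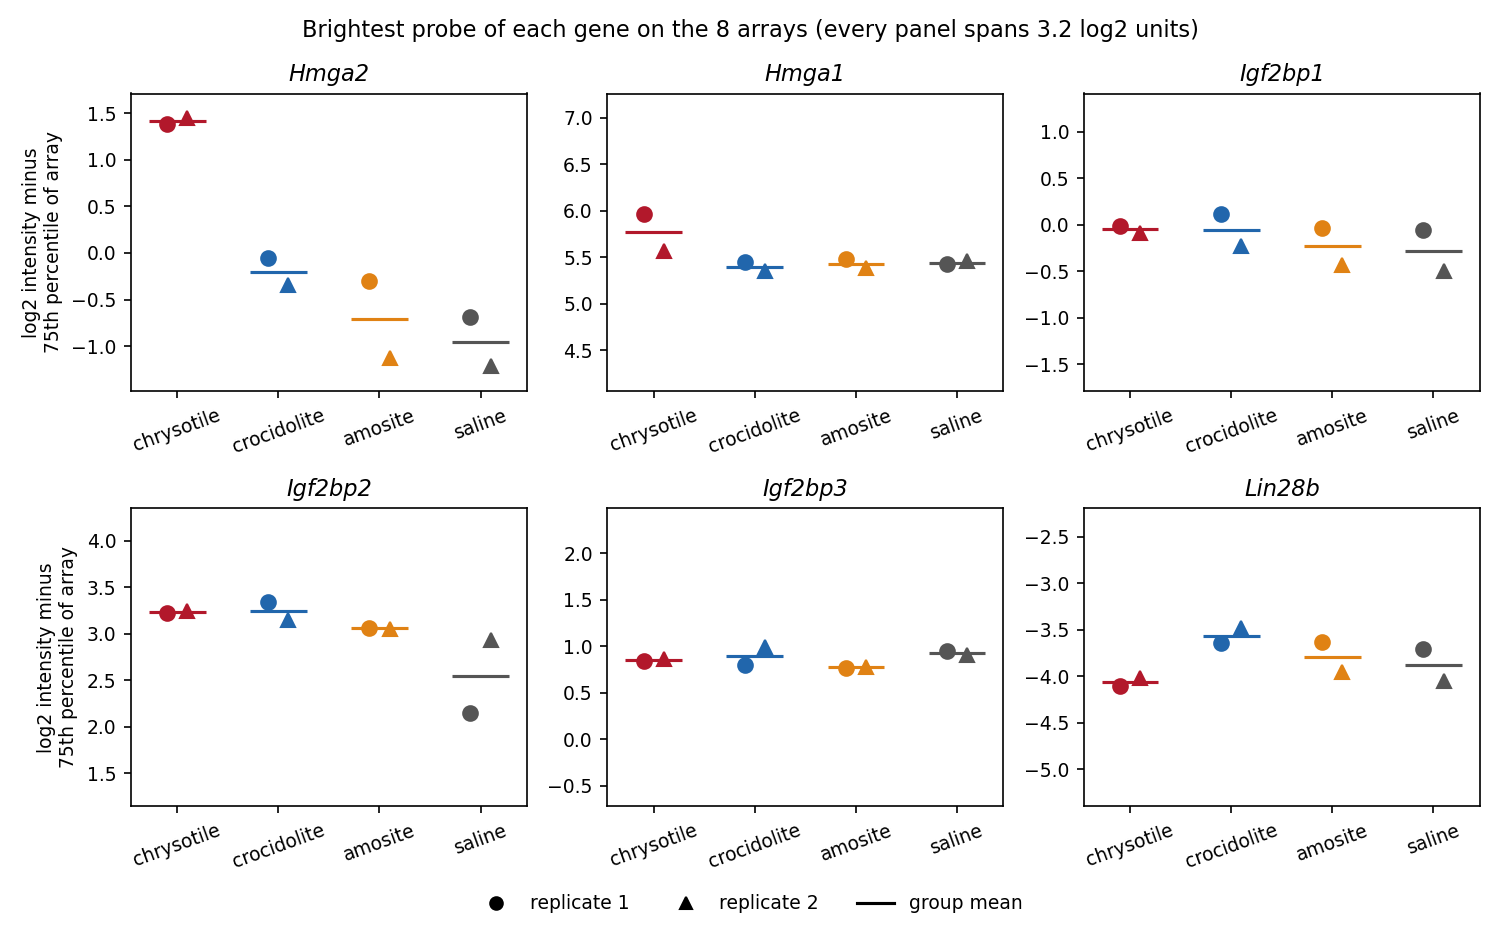
Level of the brightest probe of each of the 6 genes on the 8 arrays (log2 intensity minus the array's 75th percentile), by group, with replicate 1 as circles, replicate 2 as triangles and the group mean as a bar. Each panel spans the same number of log2 units. Hmga2 stands apart on the chrysotile arrays, at 1.39 and 1.45, and Igf2bp2 is lowest on saline replicate 1, at 2.15.

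The fitted difference of chrysotile against saline for Hmga2 was 2.37 ± 0.31 on the log2 scale (SE), a 5.16-fold higher level. It stood 12th among the 22901 genes ordered from the most positive. Its 95% interval, 1.63 to 3.11, takes no account of Hmga2 being picked by this contrast. The interval is a description, and the difference may be overstated. Chrysotile was 3.06-fold above crocidolite and 4.38-fold above amosite. The differences of crocidolite and amosite against saline were 0.75 ± 0.31 and 0.24 ± 0.31, of which the second had a 95% interval of -0.50 to 0.98. The amosite difference rested on single arrays, being -0.17 without amosite replicate 1, 0.65 without amosite replicate 2 and -0.03 without saline replicate 2. One Hmga2 contrast does not involve the groups by which the gene was picked. Crocidolite was above amosite by 0.51 ± 0.31 (95% interval -0.23 to 1.26), and limma's adjusted p over all genes was 0.996. That call stands against a background of 0 of 22901 genes (0%) at an adjusted p under 0.05 and 1176 genes (5.14%) at an unadjusted p under 0.05, where Hmga2 had an unadjusted p of 0.142.

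The second Hmga2 probe gave the same order of chrysotile over the rest. It stood at -0.34 and -0.31 on the chrysotile arrays, -1.68 and -2.26 on the crocidolite arrays, -1.47 and -2.70 on the amosite arrays, and -2.11 and -3.14 on the saline arrays. The chrysotile arrays again lay above all the others, and the crocidolite and amosite arrays overlapped. On this probe the crocidolite arrays also overlapped the saline arrays, which they did not on the brighter probe. Its differences against saline were 2.30 ± 0.49 for chrysotile, 0.65 ± 0.49 for crocidolite and 0.54 ± 0.49 for amosite. Across the 8 arrays both probes had a Pearson r of 0.97, with the same libraries behind both. A probe for the pseudogene Hmga2-ps1 stood at -2.95 and -2.87 on the chrysotile arrays, between -3.18 and -2.62 on the crocidolite and amosite arrays, and at -1.70 and -2.91 on the saline arrays, so it was not higher with chrysotile.

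**Figure D2:**
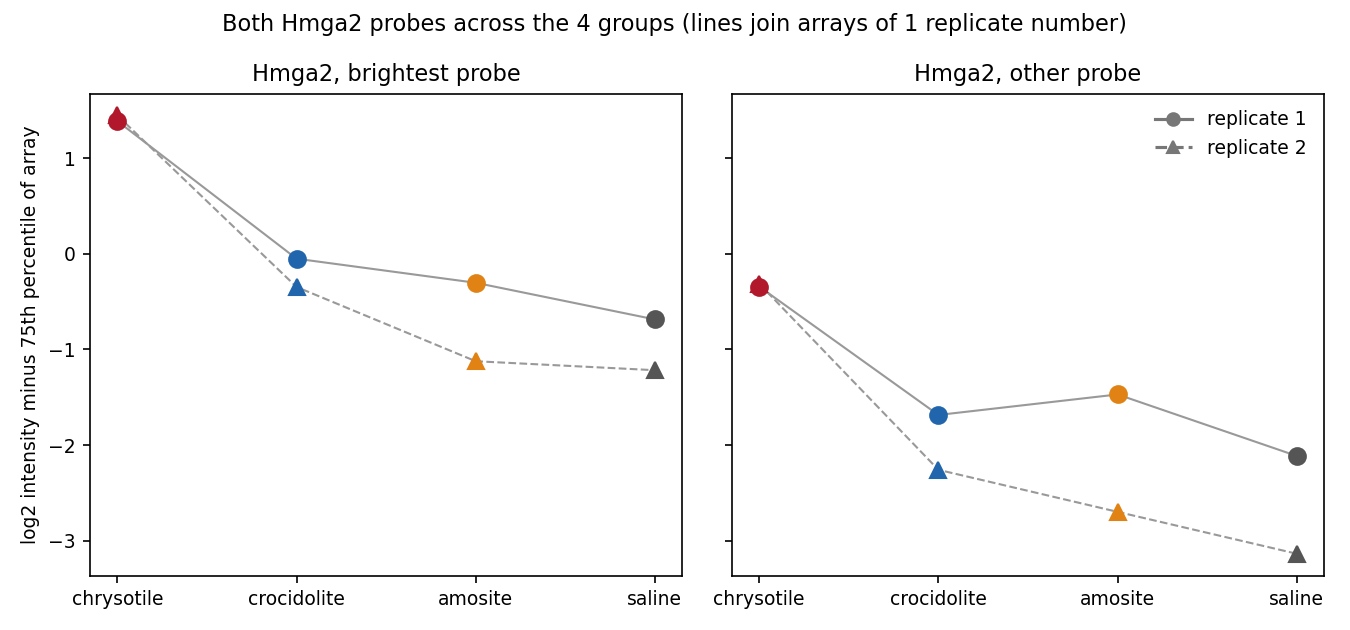
Level of each Hmga2 probe (log2 intensity minus the array's 75th percentile) by group, with lines joining arrays of the same replicate number. In both panels the chrysotile arrays lie above all the others and the replicate 2 arrays spread further down, to -1.22 on the left and -3.14 on the right for saline.

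Hmga1, which encodes the other AT-hook protein, had smaller differences between groups. Its brightest probe stood at 5.97 and 5.57 on the chrysotile arrays, 5.45 and 5.35 on the crocidolite arrays, 5.48 and 5.38 on the amosite arrays, and 5.43 and 5.45 on the saline arrays. The chrysotile arrays were above the others without overlap, but replicate 1 held most of the gap. The difference of chrysotile against saline was 0.33 ± 0.16, and it was 0.13 without chrysotile replicate 1 and 0.53 without chrysotile replicate 2. Crocidolite and amosite differed from saline by -0.04 ± 0.16 (95% interval -0.42 to 0.33) and -0.01 ± 0.16 (-0.39 to 0.37), with limma adjusted p of 0.968 and 1.00.

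The 3 Hmga1 probes did not give the same picture. The probe at chr17:27700543-27700602 (mm9, plus strand) was the brightest, and the files also tie it to transcripts of Hmga1b, a near-identical copy, so the signals of Hmga1 and Hmga1b cannot be told apart. The probe at chr17:27696588-27696647 differed from saline by 0.07 ± 0.18 with chrysotile, -0.38 ± 0.18 with crocidolite and -0.01 ± 0.18 with amosite. The probe at chr17:27693913-27693973 differed by -0.34 ± 0.16 with chrysotile, -0.58 ± 0.16 with crocidolite and -0.07 ± 0.16 with amosite. The last of these probes stood at -3.75 and -3.62 on the crocidolite arrays, below -3.25 and -2.97 on the saline arrays. In a fit of every probe its crocidolite difference had an unadjusted p of 0.00999 and a limma adjusted p of 0.621, so it did not pass. The sign with chrysotile thus differed between probes of the same gene.

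Igf2bp2, the known HMGA2 target, was higher than saline with all 3 fibres on its brightest probe, but the difference leaned on 1 saline array. The probe, at chr16:22059260-22059319 (mm9, minus strand), stood at 3.22 and 3.25 on the chrysotile arrays, 3.35 and 3.15 on the crocidolite arrays, 3.06 and 3.06 on the amosite arrays, and 2.15 and 2.94 on the saline arrays. No fibre array overlapped the saline arrays. Saline replicate 1 was far below the 7 other arrays, which spanned 2.94 to 3.35. The differences against saline were 0.69 ± 0.25 with chrysotile, 0.70 ± 0.25 with crocidolite and 0.52 ± 0.25 with amosite. For crocidolite the 95% interval was 0.10 to 1.31, with an unadjusted p of 0.0298 and a limma adjusted p of 0.663, and for amosite the adjusted p was 1.00. Leaving out saline replicate 1 took the differences to 0.30 with chrysotile, 0.31 with crocidolite and 0.12 with amosite, and leaving out saline replicate 2 took them to 1.09, 1.096 and 0.91. Without saline replicate 2 the limma adjusted p was 0.0663 for crocidolite and 0.103 for amosite, still over 0.05.

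A second Igf2bp2 probe, 322 bases away at chr16:22059582-22059641, did not show the low saline array. It stood at 1.84 and 1.92 on the chrysotile arrays, 1.94 and 1.84 on the crocidolite arrays, 1.66 and 1.57 on the amosite arrays, and 1.61 and 1.68 on the saline arrays. Chrysotile and crocidolite lay above saline without overlap, and amosite did not. The differences against saline were 0.24 ± 0.12, 0.25 ± 0.12 and -0.02 ± 0.12 for chrysotile, crocidolite and amosite. The Pearson r between the Igf2bp2 probes over the 8 arrays was 0.66.

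**Figure D3:**
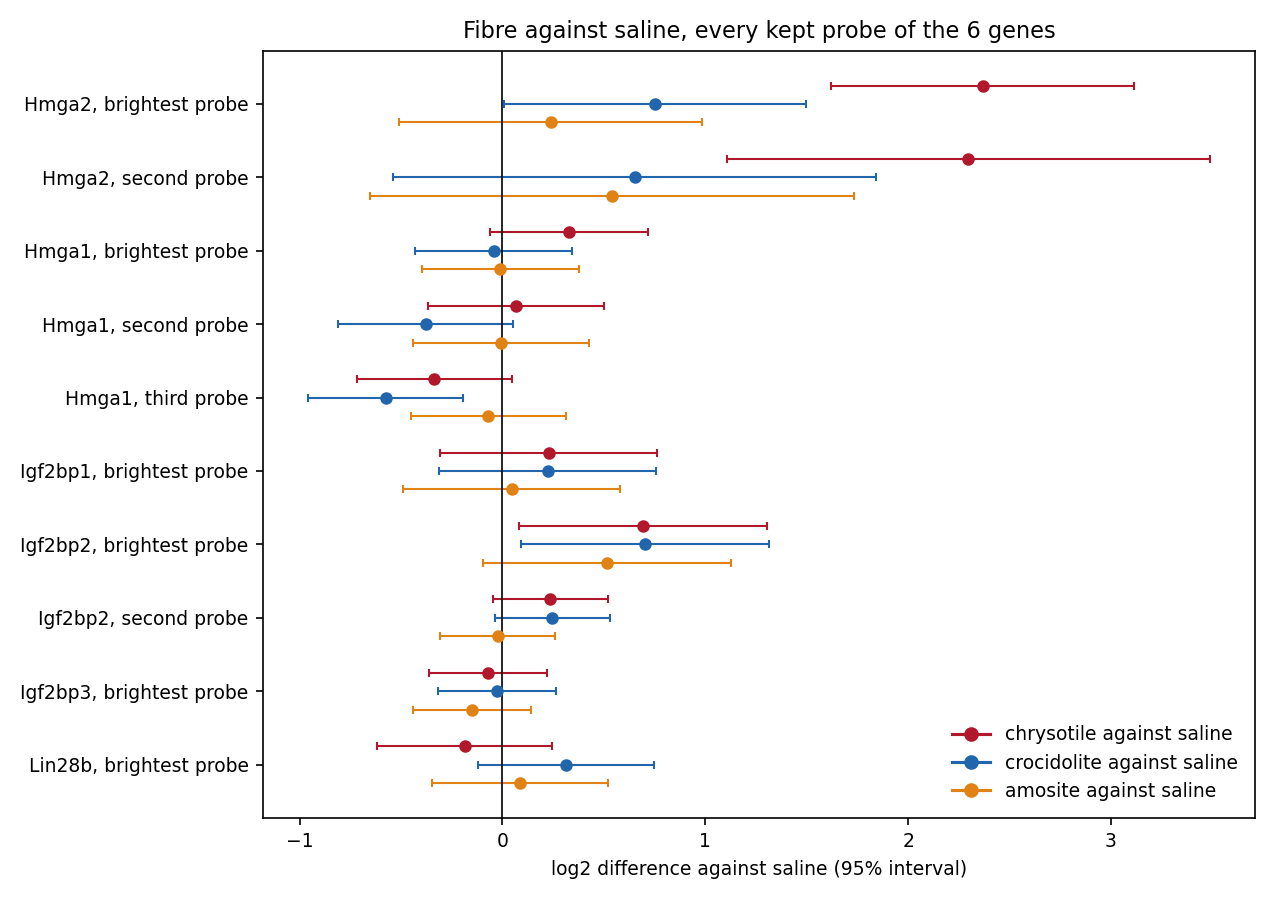
Log2 difference of each fibre against saline for the 10 kept probes of the 6 genes, with 95% intervals from the limma fit of every probe. The chrysotile intervals and all Hmga2 intervals take no account of how Hmga2 was picked and are a description. The chrysotile differences of both Hmga2 probes, 2.37 and 2.30, lie far to the right of all other points, and the Hmga1 and Igf2bp2 probes of the same gene do not coincide.

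The fetal family members Igf2bp1 and Igf2bp3 had small differences. Igf2bp1, measured at chr11:95824526-95824585, stood at -0.01 and -0.08 on the chrysotile arrays, 0.12 and -0.23 on the crocidolite arrays, -0.03 and -0.43 on the amosite arrays, and -0.06 and -0.50 on the saline arrays. Replicate 2 was the lower array in every group, and all groups overlapped with saline. Igf2bp1 differed from saline by 0.23 ± 0.22 with chrysotile, 0.22 ± 0.22 with crocidolite (limma adjusted p = 0.857) and 0.05 ± 0.22 with amosite (adjusted p = 1.00). The chrysotile and crocidolite differences were 0.45 and 0.44 without saline replicate 1, and 0.0082 and 0.0030 without saline replicate 2. Igf2bp3, measured at chr6:49035710-49035769, stood at 0.84 and 0.86 on the chrysotile arrays, 0.80 and 0.99 on the crocidolite arrays, 0.77 and 0.78 on the amosite arrays, and 0.95 and 0.90 on the saline arrays. The chrysotile and amosite arrays lay just below the saline arrays, by -0.07 ± 0.11 and -0.15 ± 0.11 on average. The 95% interval for Igf2bp3 was -0.31 to 0.25 with crocidolite and -0.43 to 0.13 with amosite, the narrowest of the 6 genes.

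Lin28b, whose product blocks let-7 maturation, was dim and did not follow Hmga2. The kept probe, at chr10:45096468-45096527, stood at -4.11 and -4.02 on the chrysotile arrays, -3.64 and -3.48 on the crocidolite arrays, -3.63 and -3.95 on the amosite arrays, and -3.70 and -4.05 on the saline arrays. The scanner software called it well above background on all 8 arrays. The crocidolite arrays were the highest group, and the chrysotile arrays lay below them without overlap, by -0.50 ± 0.17, a 1.42-fold lower level. This difference was -0.13 with normexp background correction and -0.68 with quantile normalization. Crocidolite and amosite differed from saline by 0.31 ± 0.17 (limma adjusted p = 0.740) and 0.09 ± 0.17 (adjusted p = 1.00). The second Lin28b probe, at chr10:45140412-45140471, was well above background on 1 of 8 arrays and was not used. The related Lin28a, which has the same role towards let-7, differed from saline by -0.01 with chrysotile, -0.19 with crocidolite and -0.14 with amosite.

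Counted together on their brightest probes, 3 of the 6 genes lay above saline without overlap on the chrysotile arrays (Hmga1, Hmga2 and Igf2bp2). Below saline lay 1 (Igf2bp3), where 14.2% of all genes lay above and 15.3% below. On the dimmest Hmga1 probe the chrysotile arrays lay below saline and below amosite without overlap, and on the remaining Hmga1 probe they overlapped both. With crocidolite 3 lay above saline (Hmga2 on its brighter probe only, Igf2bp2 and Lin28b) and 0 below, against 14.6% and 19.9% of all genes. With amosite 1 lay above (Igf2bp2, on its brightest probe only) and 1 below (Igf2bp3), against 8.16% and 12.9%. Chrysotile was above crocidolite in 2 genes (Hmga1 and Hmga2) and below it in 1 (Lin28b), against 12.8% and 10.6% of all genes. Chrysotile was above amosite in 4 genes (Hmga1, Hmga2, Igf2bp2 and Igf2bp3) and below it in 1 (Lin28b), against 17.8% and 15.6%. Crocidolite was above amosite in 2 genes (Igf2bp2 and Igf2bp3) and below it in 0, against 17.6% and 20.2%. The comparisons with saline share the saline arrays, and Igf2bp2's counts in them rest on the same pair of saline values. Hmga2 was picked for its rise with chrysotile, so its place in the counts with chrysotile follows from that choice. The counts are a description, and no excess over the shares of all genes can be read from them.

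Of the 5 genes other than Hmga2, 0 passed limma's adjusted p under 0.05 for crocidolite against saline, where 0 of 22901 genes (0%) passed and 1672 genes (7.3%) had an unadjusted p under 0.05. On the brightest probes 1 of the 5 counted at that unadjusted level, Igf2bp2. For amosite against saline 0 of the 5 passed, as did 0 of all genes (0%), and at the unadjusted level it was 0 of the 5 against 610 genes (2.66%). For crocidolite against amosite 0 of the 6 passed at either level on the brightest probes. Over all genes 0 of 22901 (0%) passed the adjusted level and 1176 (5.14%) the unadjusted level. In the fit of every probe, the dimmest Hmga1 probe had a limma unadjusted p of 0.00999 for crocidolite against saline and 0.0174 for crocidolite against amosite. The adjusted p of that probe was 0.621 and 0.955. Chrysotile against saline itself had 0 of 22901 genes (0%) past the adjusted threshold and 1262 genes (5.51%) with an unadjusted p under 0.05. Chrysotile against crocidolite and against amosite also had 0 genes (0%) past it, with 634 genes (2.77%) and 993 genes (4.34%) at the unadjusted level. Over the 8 arrays the Pearson r with Hmga2 was 0.75 for Hmga1, 0.61 for Igf2bp1, 0.45 for Igf2bp2, -0.09 for Igf2bp3 and -0.31 for Lin28b, as descriptions over arrays that share 1 slide.

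The genes whose pattern was most like that of Hmga2 were sought among 474 candidates, which were above background on both chrysotile arrays and whose group means spanned at least 1 log2 unit. Prl2c5, a prolactin-family gene, came first with a Pearson r of 0.96 over the 8 arrays. It stood at 2.17 and 1.78 on the chrysotile arrays, 0.88 and -0.49 on the crocidolite arrays, 0.20 and -1.25 on the amosite arrays, and -0.84 and -1.76 on the saline arrays. Prl2c1 (r = 0.94) belongs to the same family of near-identical copies, so the signals of both are uncertain. Tnnt2, which encodes cardiac troponin T, had an r of 0.95 and stood at -0.27 and -0.01 on the chrysotile arrays, -2.08 and -1.56 on the crocidolite arrays, -2.48 and -2.73 on the amosite arrays, and -2.94 and -2.93 on the saline arrays. Like Hmga2, both were highest on the chrysotile arrays and lower on both amphiboles.

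The other genes of the likeness list were, from the highest r down, Efhb, an EF-hand protein (r = 0.94), Steap1, a metalloreductase family member (0.94), Ch25h, an oxysterol-forming enzyme (0.94), Il1rl1, the receptor for interleukin-33 (0.93), Acsbg1, an acyl-CoA synthetase (0.92), Plaur, the urokinase receptor (0.90), and Ptprn, a secretory granule protein (0.89). The chrysotile differences against saline were 1.33 for Steap1, 1.91 for Il1rl1 and 1.74 for Acsbg1. They were 1.48 for Plaur and 1.25 for Ptprn, which were well above background on 7 and 6 of the 8 arrays, so these 2 differences include dim spots. Efhb and Ch25h were well above background on 2 of the 8 arrays, those with chrysotile, so no fold is given for them. The candidates were chosen for a high chrysotile level and the r values carry no test.

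**Figure D4:**
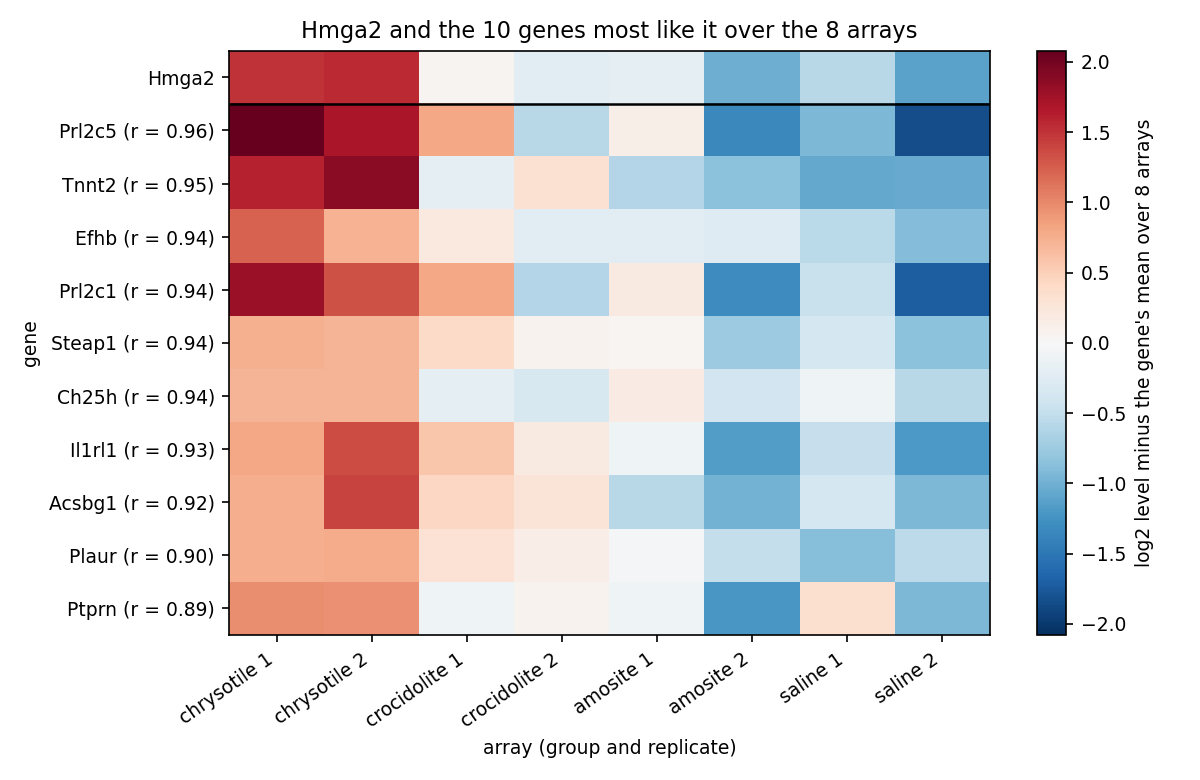
Level of Hmga2 (top row) and of the 10 genes most like it on each of the 8 arrays, as the log2 level minus the gene's mean over the arrays (red above, blue below). The chrysotile columns are red in all 11 rows, and amosite replicate 2 and saline replicate 2 are the bluest columns for most genes.

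Genes known as let-7 targets had median differences close to those of all genes. This list, like the other gene lists, leaves out the 6 genes described here. Of its 30 let-7 targets, 25 were measured and 0 passed limma's threshold in any of the 3 comparisons with saline. Their median differences were -0.01 for chrysotile, -0.02 for crocidolite and -0.03 for amosite, beside -0.01, -0.02 and -0.02 over all genes. Those furthest from 0 with chrysotile were Fas, a death receptor, at 0.46 ± 0.18, Dicer1, the nuclease that cuts microRNA precursors, at -0.43 ± 0.18, and Cdk6, a cell cycle kinase, at -0.42 ± 0.28. The 148 kept probes that hold CTACCTC had median differences of -0.01, -0.04 and -0.01 for chrysotile, crocidolite and amosite, beside -0.01, -0.03 and -0.01 over all kept probes. Hmga2's brighter probe was 1st, 3rd and 18th among them. These ranks are a description only, since Hmga2 was picked for its rise with chrysotile over these saline arrays. The 14 genes of let-7 maturation and decay had median differences of -0.03, -0.03 and -0.07, with Tarbp2, a Dicer partner, at -0.18 ± 0.13 and Xpo5, the precursor exporter, at 0.16 ± 0.11 for chrysotile.

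Of the 17 measured genes reported downstream of Hmga2, 13 had a difference above 0 with chrysotile, beside 11182 of 22901 over all genes. The list's median was 0.16 with chrysotile beside -0.01 over all genes, and 0 passed the threshold. The medians for crocidolite and amosite were 0.07 and 0.02. Above 0 were 12 of the 17 with crocidolite and 10 with amosite, beside 10608 and 10214 of 22901 over all genes. Snai1, a repressor of epithelial genes, was furthest from 0, at 1.09 ± 0.34 with chrysotile, 1.05 ± 0.34 with crocidolite (limma adjusted p = 0.637) and 0.05 ± 0.34 with amosite. Junb, an AP-1 subunit, stood at 0.81 ± 0.54 and Tet1, a DNA demethylase, at -0.63 ± 0.21 with chrysotile. With crocidolite Tet1 stood at -0.55 ± 0.21 and Junb at 0.67 ± 0.54, so all 3 genes had values near those with chrysotile. Lists of this kind draw on other cell types and were chosen with earlier results known.

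Of 19 mRNAs reported to bind IGF2BP proteins, 17 were measured and 0 passed. Their medians were 0.17 for chrysotile, 0.10 for crocidolite and -0.01 for amosite. With chrysotile, crocidolite and amosite 10, 11 and 8 of 17 were above 0, beside 11182, 10608 and 10214 of 22901 over all genes. Peg10, a retrotransposon-derived imprinted gene, stood at 1.11 ± 0.81, Abcb1b, a drug efflux pump, at 0.84 ± 0.27 and Btrc, a ubiquitin ligase subunit, at -0.52 ± 0.12 with chrysotile. In the insulin-like growth factor axis, 15 of 16 genes were measured and the medians were 0.01, -0.05 and -0.02. The IGF binding protein genes Igfbp7 and Igfbp3 stood at 0.73 ± 0.36 and 0.59 ± 0.53 with chrysotile, and Igfals, the carrier subunit, at -0.50 ± 0.46. Igf2 itself, the growth factor whose mRNA names the family, differed by 0.19 with chrysotile, 0.30 with crocidolite and -0.30 with amosite. Each had an SE of 0.63, larger than the difference, so the signs are uncertain. The other high mobility group genes, 14 of 15 measured, had medians of -0.06, -0.05 and -0.04, and the furthest with chrysotile were Hmgb2 at 0.31 ± 0.19, Hmgn3 at 0.24 ± 0.17 and Hmgb3 at -0.21 ± 0.18. No gene of any list passed.

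**Figure D5:**
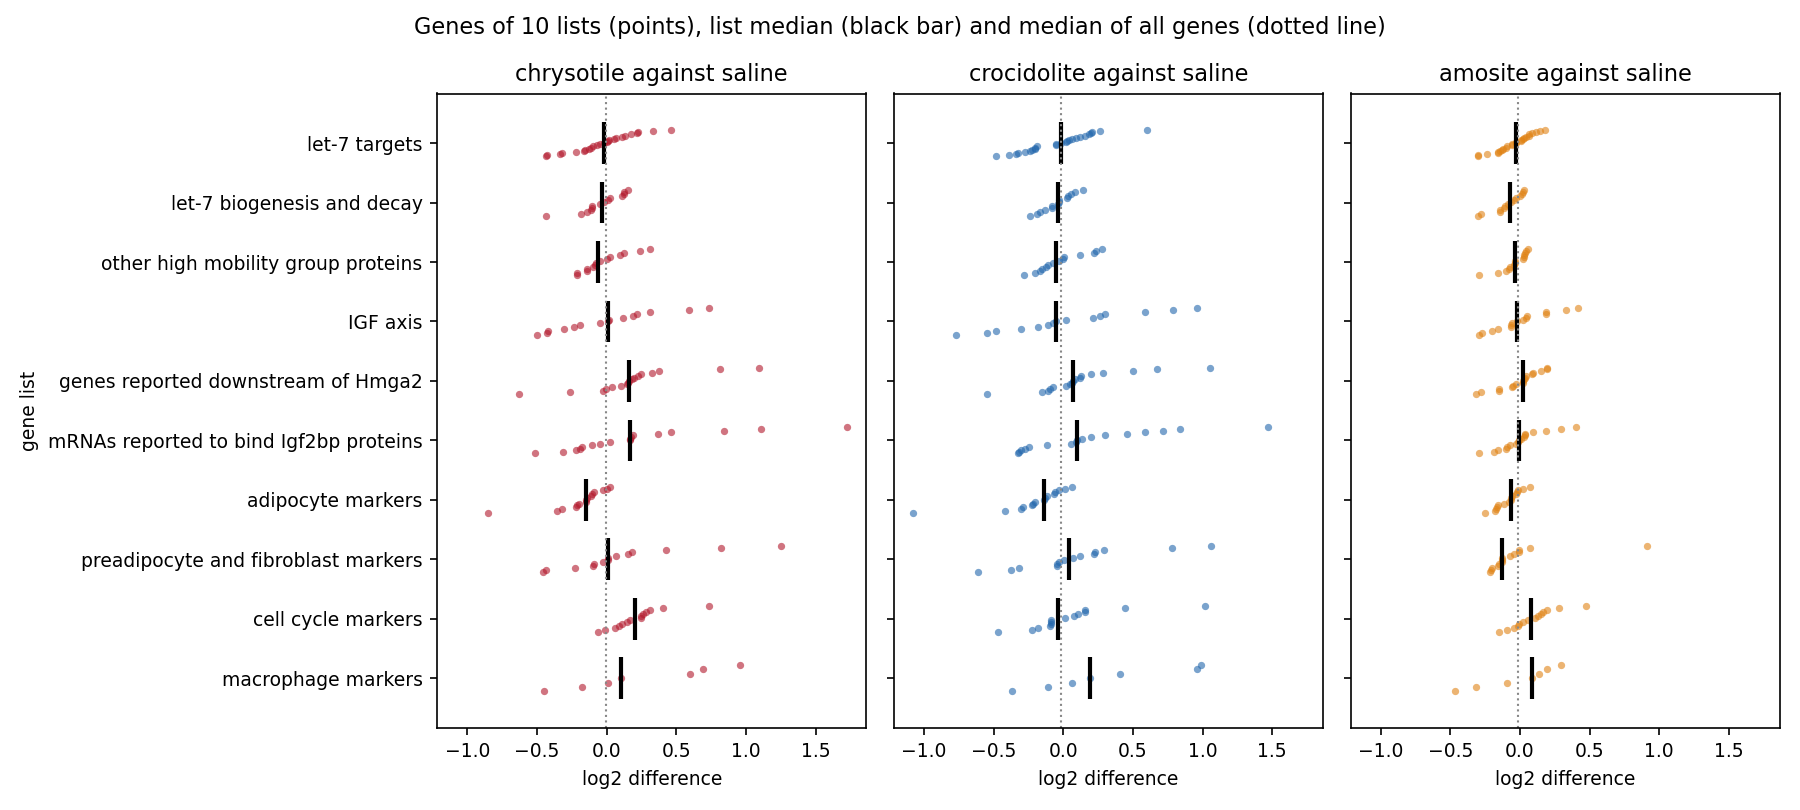
Log2 difference of each fibre against saline for the measured genes of 10 lists (points), with the list median as a black bar and the median of all genes as a dotted line. The let-7 target medians lie at -0.01 to -0.03, on the line for all genes, and the chrysotile median of the genes reported downstream of Hmga2 lies at 0.16.

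The cultures carried adipocyte markers on every array. All 15 adipocyte markers were measured, and their summed linear level, in multiples of each array's 75th percentile, was 3745 to 3873 with chrysotile, 3581 to 3852 with crocidolite, 3701 to 3874 with amosite and 3627 to 4608 with saline. Saline replicate 2 had the highest sum, 4608, and saline replicate 1, at 3627, lay within the range of the fibre arrays. The median difference of the markers was -0.14 with chrysotile, -0.14 with crocidolite and -0.07 with amosite, with 2 of 15 above 0 for each fibre. Over all genes 11182 of 22901 were above 0 with chrysotile, 10608 with crocidolite and 10214 with amosite. Car3, Dgat2 and Slc2a4 were furthest from 0 with chrysotile, at -0.85 ± 0.66, -0.36 ± 0.16 and -0.32 ± 0.22. Cfd, Fabp4 and Adipoq made up 22.7% to 26.7%, 17.9% to 20.2% and 15.3% to 17.4% of the adipocyte sum. That sum therefore says little of the dimmer markers. Preadipocyte and fibroblast markers were read beside Hmga2, a gene of early differentiation. The 14 of 15 measured summed to 1935 to 2148 with chrysotile, 1906 to 2095 with crocidolite, 1714 to 1965 with amosite and 1934 to 2085 with saline, with median differences of 0.01, 0.04 and -0.13. Col1a2 alone made up 38.3% to 40.8% of this sum and Ly6a at most 0.516%, so the sum says little of the dimmer markers. Within that list S100a4, Ly6a and Postn stood at 1.25 ± 0.41, 0.82 ± 0.27 and -0.45 ± 0.17 with chrysotile. The crocidolite values were near these, at 1.06 ± 0.41, 0.78 ± 0.27 and -0.61 ± 0.17. With amosite the 3 genes stood at 0.91 ± 0.41, -0.01 ± 0.27 and -0.21 ± 0.17.

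Cell cycle markers, 14 of 15 measured, had a median difference of 0.21 with chrysotile, -0.03 with crocidolite and 0.08 with amosite. With chrysotile 12 of 14 were above 0, beside 11182 of 22901 over all genes. The summed level of the cell cycle markers was 21.96 to 24.8 with chrysotile, 21.2 to 24.7 with crocidolite, 21.1 to 22.3 with amosite and 20.7 to 22.3 with saline. Pcna made up 59% to 64% of that sum on each array, with a chrysotile difference of 0.11, so the sum says little of the other markers. Cdc6, Top2a and Mki67 stood at 0.74 ± 0.21, 0.41 ± 0.23 and 0.31 ± 0.26 with chrysotile, and Cdc6 at 1.02 ± 0.21 with crocidolite. Mki67 stood at -0.22 ± 0.26 with crocidolite and 0.47 ± 0.26 with amosite. Of 11 macrophage markers 7 were measured, with median differences of 0.10, 0.20 and 0.08 and sums of 65.2 to 75.6, 61.9 to 69.5, 62.4 to 66.7 and 66.7 to 74.2 for chrysotile, crocidolite, amosite and saline. Itgam made up 86.1% to 89.8% of that sum on each array, with a chrysotile difference of 0.01. The defining markers Lyz2, Cd163 and Mrc1 were not well above background on any of the 8 arrays, and Adgre1 and Ptprc were on at most 3 and 4 of them. With chrysotile, crocidolite and amosite 5, 5 and 4 of the 7 measured were above 0, beside 11182, 10608 and 10214 of 22901 over all genes. Mpeg1, Cd14 and Cd68 stood at 0.96 ± 0.82, 0.70 ± 0.30 and 0.60 ± 0.17 with chrysotile. With crocidolite they stood at 0.99 ± 0.82, 0.96 ± 0.30 and 0.41 ± 0.17, and with amosite at -0.31, 0.20 and 0.13. Csf1r and Ptprc went the other way with chrysotile, at -0.45 ± 0.19 and -0.18 ± 0.40. Csf1r was also lower with crocidolite (-0.37) and amosite (-0.46). The part of these markers in the Hmga2 difference was not tested.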

How the data were processed

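Each deposited file gives the linear intensity of every spot, background-subtracted and detrended by the authors' scanner software with no scaling between arrays, from Agilent Feature Extraction (10.7.1.1 per the file headers, 10.7 per the submitters' processing notes). The deposited value table held the same intensity, with a largest difference of 0. After removal of control spots and of 99 to 183 outlier spots per array, replicate spots were averaged by probe, and log2 intensity was centred on each array's 75th percentile (340.1 to 453.4). Probes well above background numbered 31293 to 34983 per array (56.2% to 62.8% of 55681). A probe was kept if well above background on both arrays of at least 1 group (33044 probes), and the brightest kept probe stood for its gene. Symbols of 26762 probes were taken through their accessions, whether or not this changed them, and 7608 of the 22901 genes tested had no symbol.

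All differences come from 1 limma fit of the 8 arrays (lmFit and eBayes, 4 residual and 2.22 prior degrees of freedom), two-sided, with Benjamini-Hochberg adjustment at 0.05 over all genes. Values for single probes come from the same fit over all kept probes. Fits were run in R 4.3.3 (limma 3.58.1, statmod 1.5.0, and the package data.table at version 1.17.8) and tested on simulated data. Whether replicates were separate cultures is not in the labels, and the p-values therefore reflect only how these samples spread, which may be technical. All arrays lay on 1 slide with 1 scan date. One coordinate of an array's place on the slide went with its replicate number and the other with its group, so that place and the group cannot be told apart. Deviations of same-numbered arrays correlated at 0.25 to 0.46 in the 6 pairs of groups, so the numbers, taken from the sample titles, were treated as pairs in a second fit.

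The members and the gene lists were chosen with earlier results of these data known. Named genes were the 6 members, the 10 genes most like Hmga2 by Pearson r over the 8 arrays, and up to 3 genes per list with the largest chrysotile difference among probes above background on all arrays. Lin28a, Igf2 and Hmga2-ps1 were named in addition, after their values were seen. Alternatives were normexp background correction (offset 50), quantile normalization, other filters and priors, each array left out in turn, and the replicate block.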

Additional observations from a re-analysis of the deposited data

How the results depend on the processing

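Over the main and 17 alternative settings Hmga2 kept a positive difference of chrysotile against saline, from 2.04 to 2.63, and of crocidolite against saline, from 0.49 to 1.02. The ends of the chrysotile range came from normexp and from leaving out saline replicate 1. Other filters, the other prior, the replicate block and the deposited values returned the main 2.37 unchanged, so they do not test its size. This contrast also picked Hmga2. The amosite difference of Hmga2 ran from -0.17 to 0.65, with both ends from leaving out an amosite array. Crocidolite against amosite ran from 0.10 to 0.92. Of the members tested, 0 passed an adjusted p of 0.05 in the 3 comparisons under any of these settings. With the replicate block the calls stayed at 0, with a smallest adjusted p of 0.357 for crocidolite against saline, 1.00 for amosite against saline and 0.522 for crocidolite against amosite, so the block changed no member's call. Under normexp Igf2bp2 came to 1.201 with chrysotile, 1.208 with crocidolite and 1.03 with amosite against saline. Member differences, at most 0.315 in size, changed sign in 24 cases over the 6 comparisons, and the cause was not tested. Under normexp they were Lin28b with crocidolite against saline at -0.083, and Igf2bp1 and Lin28b with amosite against saline at -0.023 and -0.098. Under quantile normalization they were Hmga1 with amosite against saline at 0.027 and Igf2bp2 with chrysotile against crocidolite at 0.017. The rest came from leaving out 1 array, whose lone partner is then assumed to vary like the other groups. In those fits amosite against saline ran from -0.058 to 0.038 for Hmga1, from -0.17 to 0.26 for Igf2bp1 and from -0.086 to 0.26 for Lin28b. Crocidolite against saline ran from -0.12 to 0.067 for Igf2bp3 and from -0.092 to 0.0072 for Hmga1. Crocidolite against amosite ran from -0.082 to 0.017 for Hmga1 and from -0.019 to 0.37 for Igf2bp1. Signs also changed there for Hmga2 with amosite against saline, for Igf2bp1, Igf2bp2 and Igf2bp3 with chrysotile against crocidolite (-0.17 to 0.18, -0.11 to 0.090 and -0.14 to 0.051) and for Igf2bp1 with chrysotile against amosite (-0.014 to 0.38). Over all genes the calls for chrysotile, crocidolite and amosite against saline were 3, 2 and 2 under quantile normalization, 65, 47 and 59 without saline replicate 2, 7, 4 and 2 without chrysotile replicate 1, and 1, 4 and 2 without chrysotile replicate 2, against 0 in each main comparison. The replicates of saline differed most, with an SD of 0.543 over genes between them, beside 0.434 for chrysotile, 0.397 for crocidolite and 0.374 for amosite.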
